A study of Mus musculus with 9 samples.

Results

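The genes of the cytosolic ribosomal proteins were described in mouse gastrocnemius, the large calf muscle, at 6, 15 and 21 months of age. Members were taken by symbol, as Rpl or Rps followed by a number and an optional paralogue suffix, together with Rplp0, Rplp1, Rplp2 and Rpsa. The rule found 83 of the 17314 genes in the table, 51 of the large subunit and 32 of the small subunit, and 82 of them passed the filter on low counts. The 1 member left out, Rpl39l, had counts of 0 to 2 in the 9 libraries. Each age was represented by 3 mice with 1 RNA-seq library per mouse, from whole muscle, and the labels give no treatment, genotype, strain or sex. The study, by its title, concerns aging of skeletal muscle and the alpha receptor of thyroid hormone, and the comparisons ask how expression differed between the ages.

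The cytosolic ribosome is built from a large subunit, which forms the peptide bond, and a small subunit, which reads the messenger RNA, and each holds ribosomal RNA and many proteins. The messenger RNAs of these proteins are abundant, and most start with a run of pyrimidines, the 5′ terminal oligopyrimidine tract, through which mTOR signalling and Larp1 set their translation. Rpl3, at the core of the large subunit near the peptidyl transferase centre, has a paralogue, Rpl3l, that is found mainly in heart and skeletal muscle and takes its place in the ribosome there. Translation itself is not read by these libraries, which measure messenger RNA only.

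Total counts per library ranged from 15354396 to 17317856, with TMM scaling factors from 0.923 to 1.05. In the test across 13044 genes (the quasi-likelihood test of edgeR, Benjamini-Hochberg adjusted p under 0.05), 2, 1 and 0 genes were called at 21 against 6, 15 against 6 and 21 against 15 months. Markers of skeletal muscle summed to between 52880 and 68423 CPM (counts scaled to library size, after TMM) per library. In the marker lists for other cell types (macrophage, endothelial, fibro-adipogenic progenitor, satellite cell, smooth muscle and pericyte, erythrocyte, adipocyte), 0 genes were at 0 in all libraries. In bulk samples of whole muscle, fewer cells of a type and less RNA per cell cannot be told apart.

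The sequence around the annotated start was looked at first, since the pyrimidine tract is the feature this family is known for. RefSeq promoter entries (GRCm38.p6) were matched for 63 of the 83 members, and Rpl3 was not among them. The windows below show 15 bases before and 15 bases from the start on, 5′ to 3′ on the gene's strand. Capitals mark an unbroken run of at least 5 pyrimidines (C or T) that reaches within 5 bases of the start. They are shown for members with long and short tracts and for some of the paralogues, beside their parent gene where it had an entry.
Rpl15 (chr14:18270972-18271001, - strand): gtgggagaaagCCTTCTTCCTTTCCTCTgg
Rpl14 (chr9:120571502-120571531, + strand): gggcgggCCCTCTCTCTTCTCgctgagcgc
Rpl28 (chr7:4792950-4792979, + strand): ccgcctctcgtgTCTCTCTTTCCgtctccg
Rpl38 (chr11:114668565-114668594, + strand): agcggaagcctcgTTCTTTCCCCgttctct
Rplp2 (chr7:141447636-141447665, + strand): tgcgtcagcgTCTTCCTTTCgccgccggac
Rps27 (chr3:90213634-90213663, - strand): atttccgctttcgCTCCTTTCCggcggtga
Rps27l (chr9:66946071-66946100, + strand): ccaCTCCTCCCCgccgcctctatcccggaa
Rpl22l1 (chr3:28805493-28805522, + strand): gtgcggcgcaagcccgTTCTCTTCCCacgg
Rpl22 (chr4:152324421-152324450, + strand): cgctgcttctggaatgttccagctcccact
Rps2 (chr17:24720048-24720077, + strand): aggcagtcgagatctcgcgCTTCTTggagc
Rplp0 (chr5:115559452-115559481, + strand): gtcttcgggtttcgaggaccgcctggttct
Rpl3l (chr17:24727811-24727840, + strand): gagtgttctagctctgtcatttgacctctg

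A tract of at least 7 pyrimidines that reached within 5 bases of the start, on either side, was found in 27 of 63 members (42.9%). The share was 13.9% of 17492 protein-coding promoters searched in the same way. Runs that lie wholly before the start were counted too. The median tract was 5 bases in the members and 3 in all coding promoters. Rpl15, a large subunit protein, had a run of 17, and Rpl14 a run of 14. Rpl3l had a run of 4. Among the paralogues Rps27l carried a run of 9, as did Rps27, whereas Rpl22l1 had a run of 10 and Rpl22 of 4. The runs of Rps27l, Rpl3l and Rpl39l ended before the annotated starts, so they would not be in mRNAs from those starts. Rpl7l1, Rpl32l and Rpl39l, whose windows are not shown, had runs of 1, 10 and 7, and Rpl39 had a run of 5. The annotated starts were not checked against the transcripts in this muscle, so a tract that lies a few bases from an annotated start could be missed.

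Other motifs were searched on both strands over the 250 bases before and 50 after the start. The ETS-type motif CCGGAAG was present in 25 of 63 members (39.7%) against 11.9% of coding promoters, and AAGATGGCG, a YY1-type motif, in 4 (6.35%) against 1.92%. The GC box GGGCGG was present in 37 (58.7%) against 46.3%. The E-box CANNTG was present in 31 (49.2%) against 68.8%, and TATAAA in 8 (12.7%) against 13.3%. AGGTCA, the core element bound by thyroid hormone receptors and other nuclear receptors, was present in 6 members (9.52%) against 14.5%, and Rpl3l and Rpl22 were among the 6. These matches describe letters in a window and were not tied to binding in these mice.

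The members were spread over 19 chromosomes, with 4 on the X chromosome. Rps2 and Rpl3l are neighbours on chromosome 17, 5899 bases apart. GENCODE names 292 pseudogenes after 60 of the members, and reads that match both copies may be shared between them by the authors' counting. Of the members' values, 81.7% were whole numbers (within 0.005), against 90.4% for all genes, and 58 of the 83 members were whole in every library. Rps2, after which 11 pseudogenes are named, was whole in 0% of its libraries. The same held for Rplp2 and Rpl37, with 0 named pseudogenes, whereas Rpl23a and Rps19, with 14 each, were whole in 100%. Pseudogenes under other names were not counted, so a member with 0 named may still have some. Exons of 13 members overlap another coding gene, such as Rps28 with Kank3 and Rpl15 with Nkiras1, both on the opposite strand.

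Together the members took between 1.70 and 2.23% of all counts. Among members with a mean of at least 1 CPM and an annotated length, the median level was 259 CPM per kilobase of mRNA, with the middle of the distribution between 187 and 350 (lower and upper quartiles). Rps2, at the mRNA entry of the small subunit, was highest at 878 CPM per kilobase. Rps14, a protein of the small subunit platform, followed at 692, and Rpl23a, which lies at the exit of the peptide tunnel, at 655. At the low end stood Rpl7l1, a paralogue of Rpl7, at 19.9, Rps15a at 33.3 and Rps20 at 57.5 CPM per kilobase. The annotated mRNAs used for Rps15a and Rps20 are 5179 and 3706 bases long against a median of 817.5 over the members, and a shorter transcript in muscle would give them a higher level per length.

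**Figure D1:**
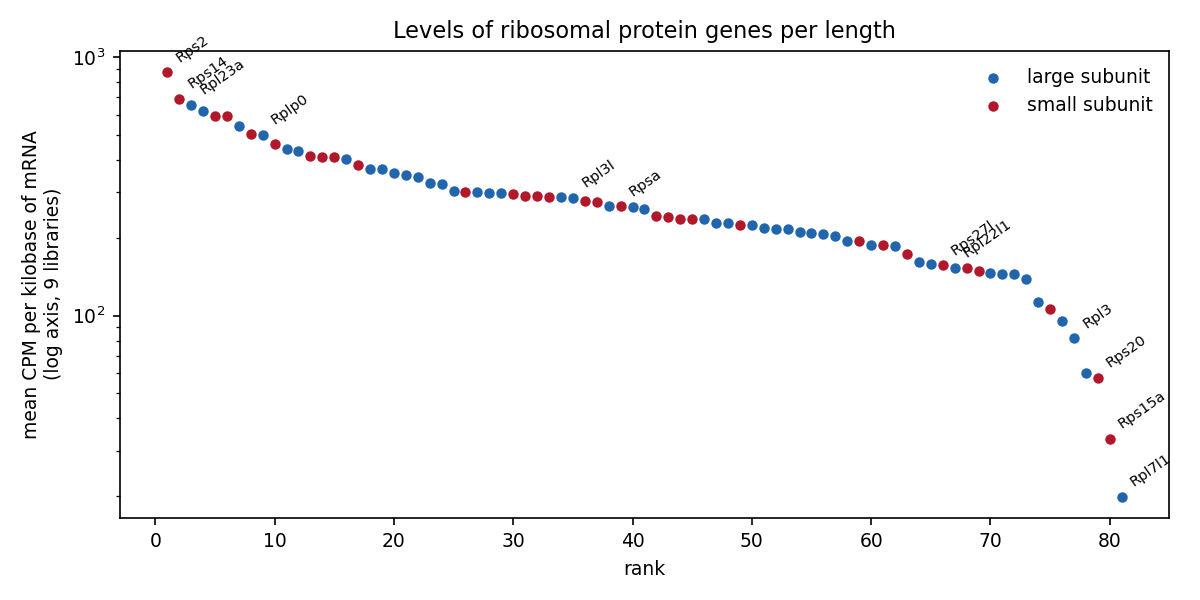
Mean CPM per kilobase of mRNA over 9 libraries (vertical log axis) for each member with a mean of at least 1 CPM and an annotated length, in order of level (horizontal axis, rank). Blue points are large subunit and red points small subunit genes. Rps2 stands at 878, Rpl3l at 286 and Rpl3 at 81.9, and Rpl7l1 is lowest at 19.9.

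Rpl3l was the more abundant of the Rpl3 pair in every library. Over all libraries it averaged 286 CPM per kilobase against 81.9 for Rpl3, on mRNAs of 1375 and 1351 bases. The other paralogues stood below their parents in CPM. Rpl22l1, whose messenger RNA is known to be held down by the Rpl22 protein, averaged 84.4 CPM against 123 for Rpl22, and Rps27l, a target of p53, averaged 78.2 CPM against 159 for Rps27. Rpl7l1 averaged 51.8 CPM against 429 for Rpl7. Rpl32l averaged 1.63 CPM against 167 for Rpl32. Rpl39l, in mouse a testis gene, had 0 to 2 counts per library where Rpl39 averaged 58.4 CPM. Rpl39 lines the peptide tunnel.

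Per length, the order of the Rpl22 pair turned. Rpl22l1, with an mRNA of 552 bases, averaged 153 CPM per kilobase, above the 60.1 of Rpl22, whose annotated mRNA has 2051 bases. This order depends on the annotated length, since a shorter Rpl22 transcript in muscle would give Rpl22 a higher level per length. Rps27l stayed below Rps27, at 157 against 462 CPM per kilobase, and Rpl7l1 below Rpl7, at 19.9 against 369. Rpl39 averaged 95.5 CPM per kilobase.

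The members' levels shifted together between libraries of the same age. The summed level was 20079, 23044 and 17064 CPM in libraries 1, 2 and 3 at 6 months. It was 21206, 19074 and 19700 CPM at 15 months and 19401, 18545 and 19881 CPM at 21 months. After TMM, both the highest and the lowest sum came from 6-month mice, so the 6-month group spanned the other groups. As a share of all counts, library 1 at 15 months was highest at 2.23%, above the 2.13% of library 2 at 6 months. The lowest share, 1.70%, was in library 3 at 6 months. The age means were 20062 ± 2990, 19993 ± 1096 and 19276 ± 677 CPM (SD, n = 3 each) at 6, 15 and 21 months, and they differed by less than the SD at 6 months. The mean shares of all counts were 1.93, 2.03 and 1.97% at 6, 15 and 21 months, so the order of the ages depended on the scaling.

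In library 2 at 6 months, 76 of 82 members were above their own median over the 9 libraries, and the median member was 0.24 higher on the log2 scale. In library 3 at 6 months, 79 of 82 were below their own median, with a median shift of -0.19. In library 1 at 15 months, 76 of 82 were above it, with a median shift of 0.14. Over all tested genes, between 42.8 and 46.6% were above their own median in any library, with a median shift of 0. In library 2 at 21 months, 68 of 82 members were below their median, by 0.09 in the median. The remaining 5 libraries had median shifts between -0.03 and 0.00082.

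**Figure D2:**
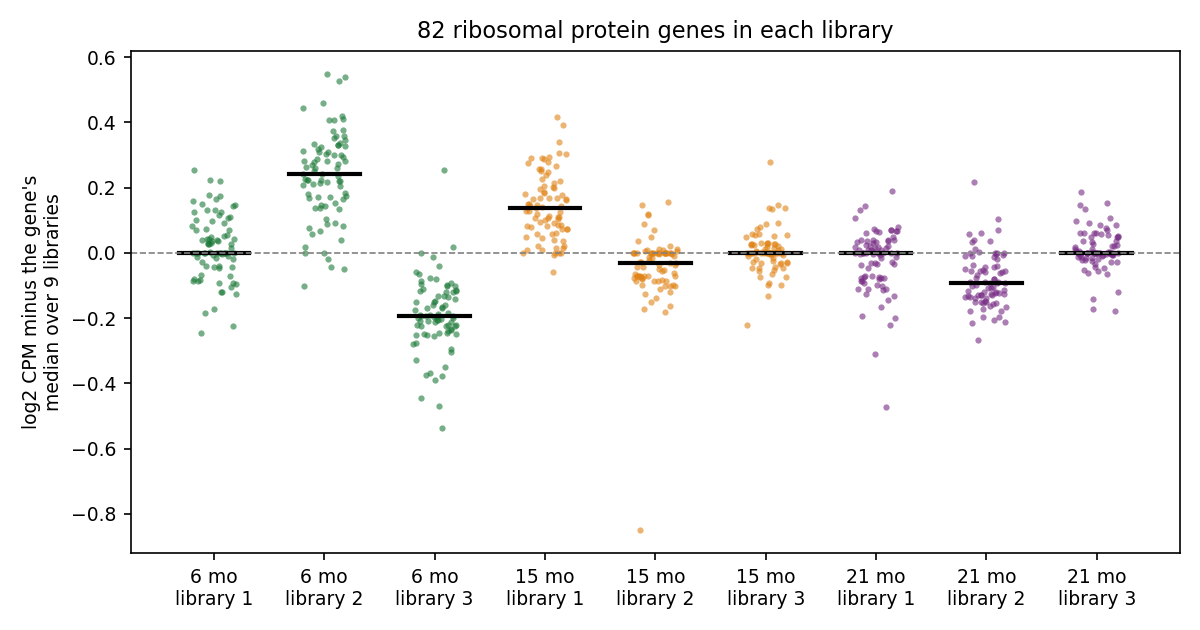
Each point is 1 of the 82 tested members, plotted as log2 CPM minus that gene's median over the 9 libraries (vertical axis), by library (horizontal axis, coloured by age). Black bars are medians, which stand at 0.24 in library 2 and -0.19 in library 3 at 6 months.

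Between the highest and lowest of the 6-month libraries, 81 of 82 members were higher in library 2, by 1.37-fold in the median and from 0.978 to 1.72-fold. Both subunits shared the shift. In library 2 at 6 months the median was 0.22 for the 50 large subunit members and 0.27 for the 32 small subunit members, and in library 3 it was -0.20 and -0.19. The 57 tested members with whole counts throughout had medians of 0.25 and -0.21 in these libraries, and the 25 others 0.22 and -0.17. Members with a pyrimidine tract of at least 7 (26 tested) stood at 0.22 and -0.18, and those with a shorter tract (36) at 0.25 and -0.19. These shifts were thus of similar size in each of these classes, as a description without a test.

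Library 1 at 15 months differed from library 2 at 6 months in how mRNA length went with the shift. In the 15-month library the 40 members with mRNAs shorter than 830 bases, the median of the tested members, had a median shift of 0.18 and the 40 longer ones 0.09. In the 6-month library the same classes stood at 0.24 and 0.25.

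A few members did not share the shifts, and they were picked out after their values were seen. In library 2 at 6 months, Rplp0, Rplp2, Rps13 and Rpl3 were below their own medians, by -0.05, -0.05, -0.02 and -0.10 on the log2 scale. In library 3 at 6 months, Rpl22l1 (0.25) and Rpl3l (0.02) were above theirs. In library 1 at 15 months, Rps20 (-0.06) and Rpl10 (-0.01) were below theirs. Rpl22l1 and Rpl22 were nearest to each other in library 3 at 6 months, at 100.3 and 105 CPM, a log2 ratio of -0.07. In the other 8 libraries that ratio lay between -0.73 and -0.48.

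Several marker lists also varied between these libraries. Slow fibre markers summed to 304, 94.8 and 216 CPM at 6 months, 1215, 646 and 388 at 15 months and 249, 349 and 1112 at 21 months. The lowest and the highest of these sums belong to library 2 at 6 months and library 1 at 15 months, the 2 libraries with high ribosomal protein levels. Markers of fibro-adipogenic progenitors summed to 4309 and 4026 CPM in libraries 2 and 3 at 6 months and to between 2789 and 3013 CPM in the others. The 4 adipocyte markers summed to 19.5 CPM in library 2 at 6 months and to between 0.678 and 4.83 CPM in the others. Their part in the shifts was not tested.

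At 21 against 6 months, 0 of 82 members passed edgeR's test, where 0.0153% of all genes did, and DESeq2 also called 0 members. At an unadjusted p under 0.05, 1 member (Rpl3, higher) was past the threshold, against 10.6% of all genes. All 3 older libraries were above all 3 younger ones for 1 member (Rpl3), against 7.81% of all genes, and below them for 0 members, against 8.31%. The members' median log2 fold change (older minus younger) was -0.07, with 67 of 82 below 0, but 31 of 82 were below 0 and the median was 0.01 under total count scaling. The median over all genes was -0.01 under TMM and 0.07 under total count scaling. The members' median was 0.04 without library 2 at 6 months, and -0.16 without library 3 at 6 months.

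At 15 against 6 months, 0 of 82 members passed edgeR's test, against 0.00767% of all genes, and DESeq2 called 0. At an unadjusted p under 0.05 there were 0 members, against 10.3% of all genes. No member was higher in all 3 older libraries (0 of 82, against 6.64% of all genes), and 1, Rpl3l, was lower in all 3 (against 7.14%). The median was -0.0029, with 40 members above 0 and 42 below, and 71 of 82 were above 0 with a median of 0.08 under total count scaling. Without library 2 at 6 months the median was 0.12, and without library 3 it was -0.09.

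At 21 against 15 months, 0 of 82 members passed edgeR's test, against 0% of all genes, and DESeq2 called 0. At an unadjusted p under 0.05 there were 0 members, against 1.82% of all genes. Rpl3 was higher in all 3 older libraries (1 of 82, against 2.84% of all genes). In all 3 older libraries 5 of 82 members were lower (against 3.3% of all genes), among them Rpl36a, Rps26, Rpl32 and Rps15, named here after their values were seen. The median was -0.07, with 69 of 82 below 0, and 68 of 82 were below 0 under total count scaling.

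The precision of these comparisons can be read from the intervals. The members' fold changes had a median SE of 0.13 on the log2 scale. The 95% interval lay within 0.5 of 0 for 73 members at 21 against 6 months, for 79 at 15 against 6 months and for 79 at 21 against 15 months. Over all 13044 tested genes it did so for 6557, 6510 and 7637 in the same order. The fold changes themselves ran from -0.24 to 0.40, from -0.17 to 0.24 and from -0.22 to 0.20. The large and small subunit medians were -0.08 and -0.07 at 21 against 6 months.

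**Figure D3:**
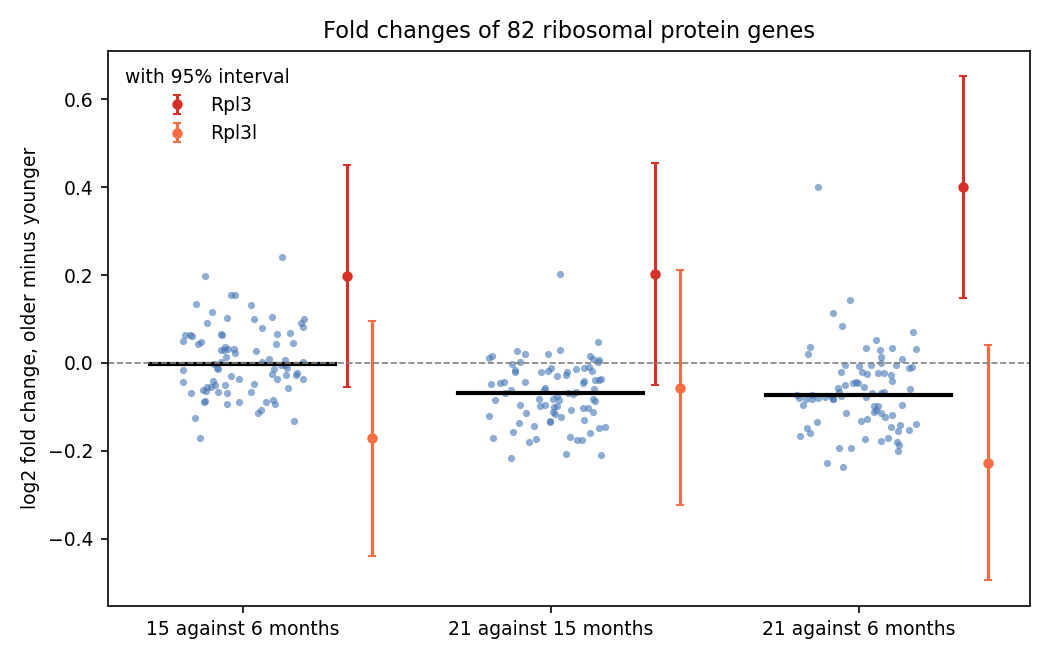
Log2 fold change, older minus younger (vertical axis), of the 82 tested members in each comparison (horizontal axis), with black bars at the medians. Red and orange points to the right repeat Rpl3 and Rpl3l with their 95% intervals. At 21 against 6 months Rpl3 stands at 0.40, apart from the other members, and Rpl3l at -0.23.

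Rpl3 (Entrez 27367, chr15:80077781-80083406) had the smallest p of the members at 21 against 6 months. Its level was 97.8, 104 and 85.7 CPM at 6 months, 123, 111 and 95.4 CPM at 15 months and 127, 129 and 123 CPM at 21 months. All 21-month libraries were above all 6-month libraries, and the 15-month libraries overlapped the 6-month ones. The log2 fold change was 0.40 (SE 0.11, 95% interval 0.15 to 0.65) at 21 against 6 months, which did not pass edgeR's test (Benjamini-Hochberg adjusted p = 0.241). DESeq2 gave 0.41 with an adjusted p of 0.0737. At 15 against 6 months it was 0.20 (SE 0.11, edgeR adjusted p = 0.584), and at 21 against 15 months 0.20 (SE 0.11, edgeR adjusted p = 0.9999).

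Rpl3l (Entrez 66211, chr17:24727826-24736143) stood at 462, 426 and 401 CPM at 6 months, 396, 377 and 371 CPM at 15 months and 345, 329 and 427 CPM at 21 months. The 15-month libraries were all below the 6-month ones. The 21-month libraries overlapped the 6-month ones through library 3, the 21-month library with the highest slow fibre marker sum, and the part of fibre type in this was not tested. The log2 fold change was -0.23 (SE 0.12, edgeR adjusted p = 0.533) at 21 against 6 months and -0.17 (SE 0.12, edgeR adjusted p = 0.656) at 15 against 6 months. At 21 against 15 months it was -0.06 (SE 0.12, edgeR adjusted p = 0.9999), and its sign changed to 0.02 without library 2 at 21 months.

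The level of Rpl3l relative to Rpl3 does not depend on library scaling. The log2 ratio of their counts was 2.24, 2.04 and 2.23 at 6 months, 1.69, 1.76 and 1.96 at 15 months and 1.45, 1.35 and 1.79 at 21 months. Every 6-month library was above every older one, and the 15 and 21-month libraries overlapped. The means were 2.17 ± 0.11, 1.80 ± 0.14 and 1.53 ± 0.24 (SD, n = 3). The difference was -0.64 at 21 against 6 months (exact permutation test, 2-sided, p = 0.1, 0.15 adjusted over the 3 comparisons) and -0.36 at 15 against 6 months (exact p = 0.1, adjusted 0.15). It was -0.28 at 21 against 15 months (exact p = 0.3, adjusted 0.3). With 3 against 3 mice this test cannot go below 0.1, so none could pass 0.05, and the ratio was examined because earlier results had singled out the pair.

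Expressed per kilobase, Rpl3l made up 81.5 ± 1.18% of the pair at 6 months, 77.4 ± 1.67% at 15 months and 73.8 ± 3.08% at 21 months (SD, n = 3). The sum of the pair was 383 ± 26.7, 359 ± 19.3 and 360.3 ± 35.8 CPM per kilobase. The sums overlapped between ages while the shares at 6 months lay above those of both older groups. Without library 2 at 6 months, library 1 at 15 months and library 3 at 21 months, the ratio difference at 21 against 6 months was -0.84. The libraries left out held the lowest ratio at 6 months (2.04) and the highest at 21 months (1.79), so the difference had to grow. All 10 macrophage markers were below 0 at 21 against 6 and at 15 against 6 months, with median log2 fold changes of -0.38 and -0.60, and all 9 slow fibre markers were above 0, with medians of 2.02 and 2.68. In edgeR's test 0 of these markers passed. Macrophage markers summed to between 186 and 289 CPM at 6 months, 96.2 and 213 CPM at 15 months and 124 and 199.97 CPM at 21 months, so the groups overlapped. The part of these cell types in the ratio was not tested.

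**Figure D4:**
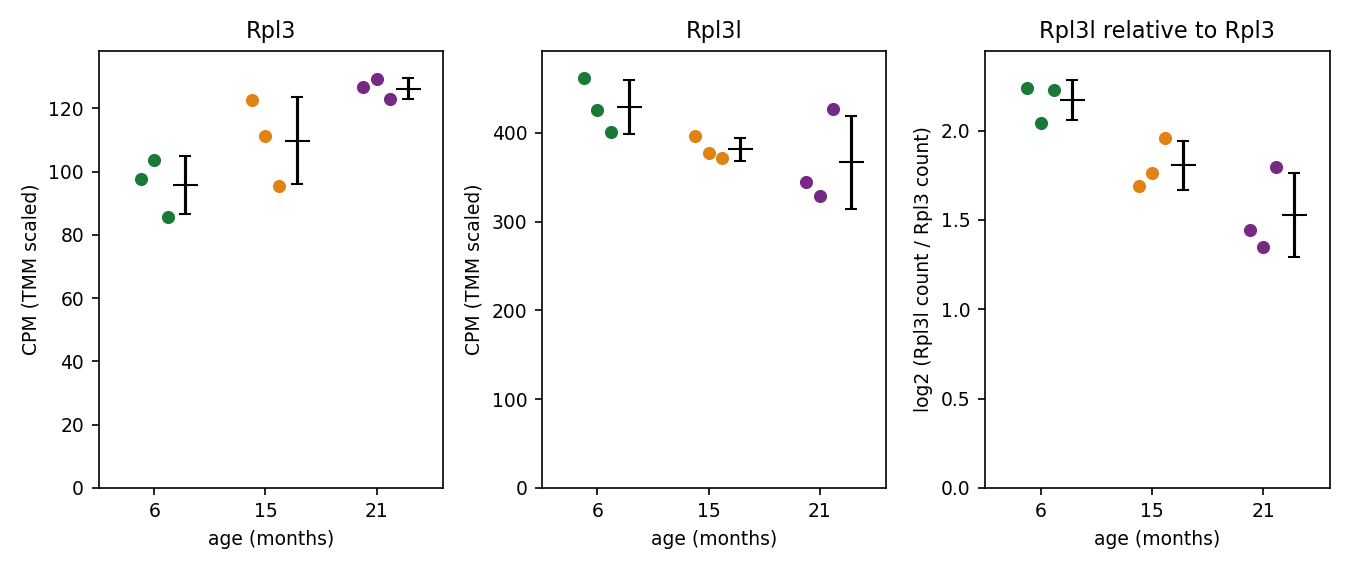
CPM of Rpl3 (left) and Rpl3l (middle) and the log2 ratio of their counts (right) against age in months, 1 point per library, with mean and SD in black (n = 3). The ratio lies between 2.04 and 2.24 at 6 months and between 1.35 and 1.79 at 21 months.

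Other members with the smaller p-values did not reach the threshold either. Rps23, at the decoding centre, stood at 226, 259 and 190 CPM at 6 months and 189, 178 and 206 CPM at 21 months, a log2 fold change of -0.24 (SE 0.13, edgeR adjusted p = 0.538). Rpl28, a large subunit protein, was at -0.18 (SE 0.11) in the same comparison, and Rpl14 at -0.17 (SE 0.12). The groups overlapped for these 3 genes.

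Rpl38, a small surface protein whose loss in mice alters the translation of Hox genes, stood at 52.6, 56.3 and 41.0 CPM at 6 months. It was at 64.9, 59.2 and 53.2 CPM at 15 months and at 49.3, 48.5 and 55.5 CPM at 21 months. Its 15-month values overlapped both other ages. The log2 fold change was 0.24 (SE 0.13, edgeR adjusted p = 0.561) at 15 against 6 months and -0.21 (SE 0.13, edgeR adjusted p = 0.9999) at 21 against 15 months. Rpl41, the shortest ribosomal protein, and Rps13 were at 0.16 (SE 0.11) and 0.15 (SE 0.12) at 15 against 6 months. Rps28 was at -0.21 (SE 0.13) at 21 against 15 months, where Rpl28 was at -0.18 (SE 0.11).

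The stalk proteins, which recruit the translation GTPases to the large subunit, were at different levels. Rplp0, the base of the stalk, stood at 747, 655 and 586 CPM at 6 months, 728, 698 and 676 at 15 months and 641, 627 and 769 at 21 months. Rplp1 averaged 149 CPM and Rplp2 109 CPM. The log2 fold changes at 21 against 6 months were 0.03 (SE 0.13), -0.02 (SE 0.12) and -0.13 (SE 0.11) for Rplp0, Rplp1 and Rplp2. Rplp2 was at -0.17 (SE 0.11) at 21 against 15 months. The stalk genes thus differed in sign, and each fold change was less than 2 SE from 0.

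The steadiest members were Rpsa, a small subunit protein also known as a laminin receptor, Rpl15 and Rpl7l1. The SD of their log2 CPM over all 9 libraries was 0.06, 0.07 and 0.09, against a median of 0.15 for the tested members. Rpsa ranged from 477 to 552 CPM. The most variable were Rpl32l (0.37), at 0.921 to 2.05 CPM and 15 to 33 counts per library, where counting error is large, Rpl26 (0.22), a large subunit protein, and Rps27a (0.21). Rpl26 stood at 295, 390 and 227 CPM at 6 months and between 255 and 310 CPM in the older mice, so its spread lay mostly within the 6-month group.

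Genes that work with the ribosomal proteins were given by lists. In the tests of edgeR, 0 genes of these lists passed in any of the 3 comparisons. Of the 4 tested genes of ribosomal fusion and accessory proteins, Rack1, a scaffold on the small subunit, stood at 336 ± 53.6, 326 ± 22.0 and 321 ± 13.6 CPM (SD, n = 3) at 6, 15 and 21 months. All 4 genes of this list were above their own median in library 2 at 6 months and below it in library 3, as most members were. Other lists also leaned this way in libraries 2 and 3 at 6 months. In library 2, 28 of 37 initiation factors, 40 of 60 ribosome assembly factors and 12 of 15 RNA polymerase I genes were above their medians. So were 7 of 10 elongation factors and related genes and 9 of 15 regulators of ribosomal protein synthesis. In library 3, 29, 49, 8, 7 and 12 genes of these lists, in the same order, were below. These lists did not follow the members in library 1 at 15 months, where 76 of 82 members were above their medians. There 9, 23, 4, 4 and 2 genes of the lists, in the same order, were above and 23, 30, 10, 6 and 12 below.

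The list of elongation factors and related genes (10 tested) was led by Tpt1, at 1818 CPM. Tpt1 is a translationally controlled protein and not itself an elongation factor. Eef2, the translocase, followed at 1409 CPM. Of the 37 initiation factors, with Eif4g2 (1098 CPM) and Eif1 (847 CPM) the most abundant, 5 were higher and 2 lower at 21 against 6 months at an unadjusted p under 0.05, where 671 and 717 of all 13044 genes (10.6% together) were. Chosen after their values were seen, Eif1a, which scans for the start codon, was at 0.54 (SE 0.15, edgeR adjusted p = 0.218) and Eif4g3, a scaffold of the cap complex, at -0.43 (SE 0.14, edgeR adjusted p = 0.329). The list's median was 0.0090 against -0.01 for all genes.

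RNA polymerase I, which transcribes ribosomal RNA, and its factors (15 tested) were led by Rrn3 at 78.3 CPM and Polr1d at 61.8 CPM, with a median of 0.0024 at 21 against 6 months. Of 60 ribosome assembly factors, led by Ncl (nucleolin, 240.4 CPM) and Npm1 (nucleophosmin, 160 CPM), 42 were above 0 and 18 below at 21 against 6 months, with a median of 0.09. Over all genes 6262 were above 0 and 6782 below, with a median of -0.01. The list varied within ages: 47, 31 and 15 of the 60 were above their own median in libraries 1, 2 and 3 at 21 months. At 6 months these counts were 9, 40 and 10. For 6 of the 60 all older libraries were above all younger ones, against the 7.81% of all genes given before, and for 0 they were below.

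Among 15 regulators of ribosomal protein synthesis, Larp1, which binds the pyrimidine tract, averaged 210 CPM, and Maf1, a repressor of RNA polymerase III, 94.3 CPM. Myc, a transcription factor that drives ribosome production, was picked out after its values were seen. It stood at 4.84, 4.13 and 4.78 CPM at 6 months, 6.07, 6.10 and 7.96 CPM at 15 months and 8.11, 8.59 and 7.53 CPM at 21 months. Both older groups were above all 6-month libraries, and neither difference passed: it was 0.55 (SE 0.16, edgeR adjusted p = 0.315) at 15 against 6 months and 0.82 (SE 0.15, edgeR adjusted p = 0.0796) at 21 against 6 months.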

How the data were processed

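RNA was measured in gastrocnemius of 9 mice. Per the labels' protocols, mRNA was selected with oligo(dT) and sequenced as DNA nanoballs. The authors deposited estimated counts per gene, with mm10 as the build, as the submitters' processing notes state. The aligner, the counter and its strand setting were not given in the sources used here. How reads matching several genes were handled is not known, which may touch members with pseudogenes. Columns were matched to samples by title, and 0 columns belonged to other samples.

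Counts were rounded, filtered with filterByExpr (minimum count 10) and scaled by TMM. Ages were compared with edgeR 4.0.16 (glmQLFit and glmQLFTest, R 4.3.3) in a single model of the 9 libraries, and p-values were adjusted by Benjamini-Hochberg over 13044 genes (threshold 0.05). The fit had 6 residual and 4.24 prior degrees of freedom. The Rpl3l to Rpl3 ratio was compared by an exact permutation test. The procedure was tested on simulated data. Alternatives were DESeq2 1.42.0, RLE and total count scaling, TMM without the members, no filter or 5 CPM in 3 libraries, a replicate block, only the 2 ages compared, and libraries left out. Scaling to the other members was chosen after seeing the data.

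mRNA lengths are from GENCODE M21 (shortest principal RefSeq-matched transcript). Promoters are from RefSeq promoter entries, using the most upstream start per gene among these entries. For some members, such as Rps2, Rps27l and Rpl38, the annotated gene begins upstream of the start used. Members and lists were chosen with earlier results of these data known. Named genes are Rpl3 and Rpl3l, other paralogues with their parents, the stalk proteins and Rpsa, the 5 smallest p-values per comparison, the 3 highest and lowest per kilobase, the 3 most and least variable members, and the 2 most abundant genes of each list. Rpl3, which follows Rps27a in spread, is described separately. The marker and pathway lists hold genes chosen by known role. Values of some genes that these rules select are not reported here.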

Additional observations from a re-analysis of the deposited data

How the results depend on the processing

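Under each alternative, including DESeq2 and each library left out, 0 members were called in the 3 comparisons, and the members' medians moved from those reported by less than 0.14, the SD of the members' median shift between libraries of an age. Leaving out 1 library gave medians from -0.16 to 0.04 at 21 against 6 months, from -0.09 to 0.12 at 15 against 6 months and from -0.11 to -0.02 at 21 against 15 months. Without library 2 at 6 months, library 1 at 15 months and library 3 at 21 months the medians were 0.02, 0.06 and -0.03, with 32, 16 and 58 of 82 members below 0. The Rpl3 difference at 21 against 6 months ran from 0.33 to 0.49, with adjusted p from 0.0737 (DESeq2) to 0.538. Scaled to the other members it was 0.45, and that of Rpl3l -0.19. The Rpl3l difference at 21 against 15 months ran from -0.18 to 0.015 with 1 library left out, the latter without library 2 at 21 months, and the cause was not tested. The log2 ratio of Rpl3l to Rpl3 ran from -0.77 to -0.55, from -0.44 to -0.31 and from -0.41 to -0.18 in the 3 comparisons in the same order, and without the 3 libraries named above it was -0.84, -0.37 and -0.46. These 3 libraries held the lowest ratios at 6 and 15 months and the highest at 21 months. Leaving them out thus had to widen the differences at 21 against 6 and 21 against 15 months.

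Counts of all genes called were less steady. At 21 against 6 months (2 genes), DESeq2 called 196, no filter 30, total count scaling 1, and leaving out 1 library 0 to 42. At 15 against 6 months (1 gene), DESeq2 called 110, leaving out 1 library 0 to 10, and total count scaling, the filter of 5 CPM and only the 2 ages compared 0. At 21 against 15 months (0 genes), DESeq2 called 3. Replicate numbers were shared between ages, but correlations of same-numbered libraries ran from -0.47 to 0.43 and do not pair the mice. With the replicate block, 5, 0 and 0 genes and 0 members were called, the members' medians were -0.07, 0.0011 and -0.07, the ratio difference at 21 against 6 months was -0.64, and Rpl3 stood at 0.41 (edgeR adjusted p = 0.286).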
